A study of Mus musculus with 12 samples.

Results

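Collagens are the proteins of the extracellular matrix that are built from 3 alpha chains wound into a triple helix, and each chain is encoded by a gene of its own. The collagen chain genes described here are all genes of the deposited table whose symbol is written as Col, a type number, the letter a and a chain number. There were 44 such genes among the 24421 genes of the table, and 36 of them had a mean normalized count of at least 10 over the 12 libraries. The symbol alone decides which genes belong, although the family itself was picked for description with earlier results of these data known.

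The data are polyA-selected RNA sequencing of whole adrenal glands, cleaned of adherent fat, from 2-month-old female mice of a mixed sv129 and C57BL/6 background. The mouse model uses a Cre recombinase expressed from the aldosterone synthase locus (Cyp11b2), which recombines in steroid-producing cells of the cortex and leaves capsule, medulla, vessels and blood cells with intact alleles. The Abcg1 cKO group had 2 conditional alleles of Abcg1 besides Cre, and the Abca1 cKO group had 2 conditional alleles of Abca1 besides Cre. Abcg1 and Abca1 are transporters that move cholesterol out of cells. Controls carried Cre alone according to the series' design, so that all 3 groups share Cre, whereas the study's methods also name littermates with 1 of the 2 conditional alleles as controls and leave unsaid whether these had Cre. There were 4 libraries in each group, and the study set the 4 Abcg1 cKO libraries against the 8 control and Abca1 cKO libraries together, called the combined group below.

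Every level given here is the authors' mean over the libraries of a group, in read counts divided by a size factor for each library (normalized counts). The table's 12 single-library columns could not be tied to the samples by name and were set aside, as were the columns of the authors' own comparison. No value per library, no spread between mice and no test is therefore given here, and a mean that rests on 1 library is not told from one that all libraries share. A difference is given as the log2 ratio of the Abcg1 cKO mean over the combined mean, with a pseudocount of 1 added to both, and is called higher or lower when it passes a fold of 1.2, which is 0.26 on the log2 scale. Such a call describes these means and is not a test. Abca1 cKO cannot be separated from control in the combined mean, raw sequencing depth is unknown, and in RNA of a whole gland fewer cells of a type and less RNA per cell cannot be told apart. The summed means over all genes were 18311615 in the combined group and 18889571 in Abcg1 cKO. The mean of Abcg1 itself was 305 in the combined group and 250 in Abcg1 cKO (log2 ratio -0.29), counted over a whole gene of which Cre removes a single exon.

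As background, fibrillar collagens (types I, II, III, V, XI, XXIV and XXVII) assemble into the banded fibrils that give tissue its tensile strength. Type IV collagen forms the sheet-like network of basement membranes, which in the adrenal surround the cords of cortical cells, the sinusoidal capillaries and the chromaffin cells of the medulla. Type VI collagen forms beaded filaments between cells and fibrils, and the remaining types sit on fibril surfaces, in anchoring structures, in basement membrane zones or in the plasma membrane. The adrenal is covered by a fibrous capsule, whose fibroblast-like cells are a main source of fibrillar collagen in the gland.

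The 6 type IV chains are encoded in 3 pairs of genes that are transcribed away from each other. Only these 3 pairs of members had start sites within 2000 bases of each other on opposite strands in GENCODE M21 for GRCm38. On chromosome 8, Col4a1 starts at 11312826 on the minus strand and Col4a2 at 11312805 on the plus strand, so that their first exons overlap by 22 bases. On chromosome 1, Col4a4 starts at 82586849 on the minus strand and Col4a3 at 82586921 on the plus strand, 72 bases away. On the X chromosome, Col4a6 starts at 141474076 on the minus strand and Col4a5 at 141475385 on the plus strand, 1309 bases away. The start regions are given because the members of each pair were read side by side in the comparison. They are RefSeq windows on GRCm38.p6 (the mm10 build) from 250 bases before to 50 bases after the annotated start, written 5′ to 3′ on the strand of the gene, and capitals mark every match on either strand to 3 short promoter motifs, the CCAAT box, the GC box written GGGCGG and the TATA box written TATAAA. The windows lie at chr8:11312777-11313076 (Col4a1), chr8:11312555-11312854 (Col4a2), chr1:82586800-82587099 (Col4a4), chrX:141474027-141474326 (Col4a6) and chrX:141475169-141475468 (Col4a5), and the window of Col4a4 also spans the start of Col4a3.
Col4a1: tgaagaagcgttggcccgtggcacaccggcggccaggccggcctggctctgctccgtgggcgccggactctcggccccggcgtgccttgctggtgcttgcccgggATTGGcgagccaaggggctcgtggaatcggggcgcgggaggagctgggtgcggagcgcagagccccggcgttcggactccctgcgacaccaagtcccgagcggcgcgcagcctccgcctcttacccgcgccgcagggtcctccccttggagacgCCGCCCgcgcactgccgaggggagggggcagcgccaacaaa
Col4a2: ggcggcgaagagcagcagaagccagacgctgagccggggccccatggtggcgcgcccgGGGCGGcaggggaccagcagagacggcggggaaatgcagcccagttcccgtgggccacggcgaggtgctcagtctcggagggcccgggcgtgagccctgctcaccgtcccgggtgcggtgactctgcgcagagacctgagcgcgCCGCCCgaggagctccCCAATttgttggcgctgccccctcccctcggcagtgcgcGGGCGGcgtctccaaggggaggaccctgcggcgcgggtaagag
Col4a4: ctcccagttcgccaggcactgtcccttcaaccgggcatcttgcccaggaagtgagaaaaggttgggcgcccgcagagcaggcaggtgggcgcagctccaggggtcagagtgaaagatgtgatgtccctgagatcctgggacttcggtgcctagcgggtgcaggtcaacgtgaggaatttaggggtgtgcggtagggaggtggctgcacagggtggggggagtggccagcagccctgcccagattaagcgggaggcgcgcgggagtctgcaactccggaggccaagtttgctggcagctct
Col4a6: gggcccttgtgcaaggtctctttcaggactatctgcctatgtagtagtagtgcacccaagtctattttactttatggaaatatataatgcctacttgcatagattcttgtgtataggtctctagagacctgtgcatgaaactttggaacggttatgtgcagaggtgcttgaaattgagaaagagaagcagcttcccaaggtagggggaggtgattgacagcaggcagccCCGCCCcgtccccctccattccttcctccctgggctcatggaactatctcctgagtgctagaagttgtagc
Col4a5: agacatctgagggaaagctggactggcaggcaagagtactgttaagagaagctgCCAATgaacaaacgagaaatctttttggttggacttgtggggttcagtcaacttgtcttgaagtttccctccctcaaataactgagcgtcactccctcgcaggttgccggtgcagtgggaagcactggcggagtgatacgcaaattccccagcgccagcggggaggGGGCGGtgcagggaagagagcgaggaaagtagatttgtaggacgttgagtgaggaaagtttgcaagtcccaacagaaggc

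In these windows the Col4a1 and Col4a2 starts share a GGGCGG match, at 11312812 to 11312817 of chromosome 8, which begins at position 9 from the Col4a1 start and at position 7 from the Col4a2 start, with the start base as 0. Col4a2 held 2 more GGGCGG matches, at positions -192 and -48, and a CCAAT match at -32, and Col4a1 held a CCAAT match at -145. Col4a6 held GGGCGG at -21, Col4a5 held CCAAT at -196 and GGGCGG at -30 from its RefSeq start, and the Col4a4 window held no match to any of the 3 motifs. None of the 5 windows held TATAAA. The GC content was 74.0% for Col4a1, 73.7% for Col4a2, 63.3% for Col4a4, 52.7% for Col4a5 and 48.3% for Col4a6, against a median of 52.7% over all 32851 windows. A window was found for 35 of the 44 members, as 38 windows in all, with a median GC content of 59.8%. GGGCGG stood in 23 of the 38 windows (60.5%) and in 35.7% of all windows, CCAAT in 13 of 38 (34.2%) and in 37.4% of all, and TATAAA in 5 of 38 (13.2%) and in 13.6% of all. Such matches describe letters in a window and are not measured binding sites. No window was matched to Col1a1, Col2a1, Col4a3, Col5a2, Col9a3, Col12a1, Col14a1, Col22a1 or Col26a1.

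The adrenal's highest collagen transcript levels were those of the type VI chain gene Col6a1 and the type IV chain genes Col4a1 and Col4a2. To compare levels between genes, the means were divided by transcript length in kilobases, using for each gene the GENCODE coding transcript with the longest coding part. Col6a1, which encodes the chain that every type VI trimer contains, had the highest level, 1696 normalized counts per kilobase in the combined group, or 28% of the summed level of all collagen chains. Col4a1 followed at 991 per kilobase and Col4a2 at 794 per kilobase, the chains of the type IV trimer found in nearly all basement membranes. These 3 genes made up 57.5% of the collagen chain level in the combined group and 59.5% in Abcg1 cKO. Col5a3, a chain of type V collagen, which starts and limits the thickness of fibrils, came next at 564 per kilobase, above both type I chains: Col1a2 had 284 and Col1a1 87.0 per kilobase in the combined group. With Col1a2 the first 5 genes made up 71.5% in the combined group and 74.3% in Abcg1 cKO, and the first 10, which add Col3a1, Col18a1, Col15a1, Col5a1 and Col6a2, made up 86.7% and 88.5%. The place of Col1a2 depends on the length used: with joined exons it stood at 124 per kilobase over all libraries, below Col18a1 (193), Col3a1 (148), Col5a1 (144) and Col15a1 (132), while the order of the first 4 genes stayed as it was. By their overall mean, without regard to length, Col6a1 ranked 283rd among the 24421 genes, Col4a1 334th, Col4a2 479th and Col5a3 773rd.

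**Figure D1:**
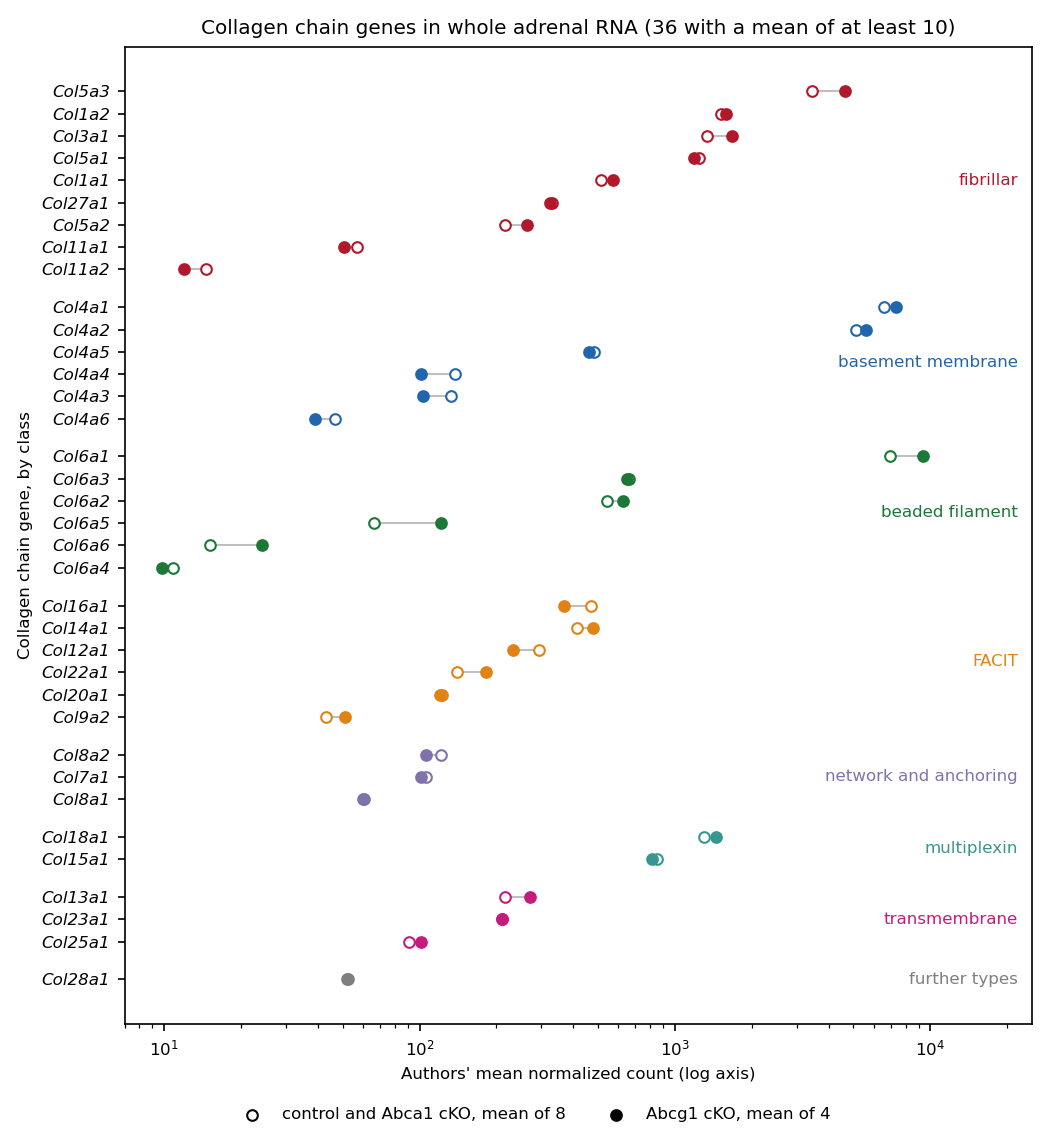
The horizontal log axis gives the authors' mean normalized count of each collagen chain gene, with an open point for the combined control and Abca1 cKO group (mean of 8 libraries) and a filled point for Abcg1 cKO (mean of 4), and genes are grouped by class. The 36 genes with an overall mean of at least 10 span from about 10 for Col6a4 to 9340 for Col6a1 in Abcg1 cKO, and most open and filled points lie close together while Col6a5 and Col6a6 stand furthest apart.

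Across the 36 genes, 8 had a mean past 1.2-fold higher in Abcg1 cKO and 5 had a mean past 1.2-fold lower, while 23 lay within that fold. Among all 14305 genes kept by the same filter, 10.4% were past the fold in the higher direction and 12.2% in the lower direction. The log2 ratios of the collagen chains had a median of 0.01, quartiles of -0.09 and 0.21, and a range from -0.43 for Col4a4 to 0.87 for Col6a5. Over all genes kept, the median was 0.00 and the quartiles were -0.13 and 0.12, so the centre of the collagen chains lay at that of all genes and their upper quartile lay above it. There were 20 collagen chains above 0 and 16 below.

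The abundant chains mostly had a higher mean in Abcg1 cKO, and the others lay on both sides of 0. Of the 8 chains with a mean of at least 1000 (Col6a1, Col4a1, Col4a2, Col5a3, Col1a2, Col3a1, Col18a1 and Col5a1), 7 had a higher mean in Abcg1 cKO, 3 of them past the fold and none in the lower direction, with a median log2 ratio of 0.16. Of the 4183 genes at this level, 7.51% were past the fold in the higher and 1.96% in the lower direction, 2714 were above 0, and the median was 0.05. The other 28 chains, with means from 10 to under 1000, had 5 members past the fold in each direction and a median of -0.02. Of the 10122 genes at that level, 11.6% were past the fold in the higher direction and 16.4% in the lower direction, with a median of -0.03. Set against genes of similar mean in 20 equal bins, 33 of the 36 chains lay between the 5th and 95th percentile of their bin. Col6a5 (bin limit 0.51) and Col5a3 (bin limit 0.32) lay above it, and Col16a1 (bin limit -0.30) lay below it. By definition such a range leaves out 5% of genes on each side, so some chains outside it are no result about collagens. Col5a3 stood near the top of its bin, and the limit of the next bin up was 0.47, above the ratio of Col5a3.

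**Figure D2:**
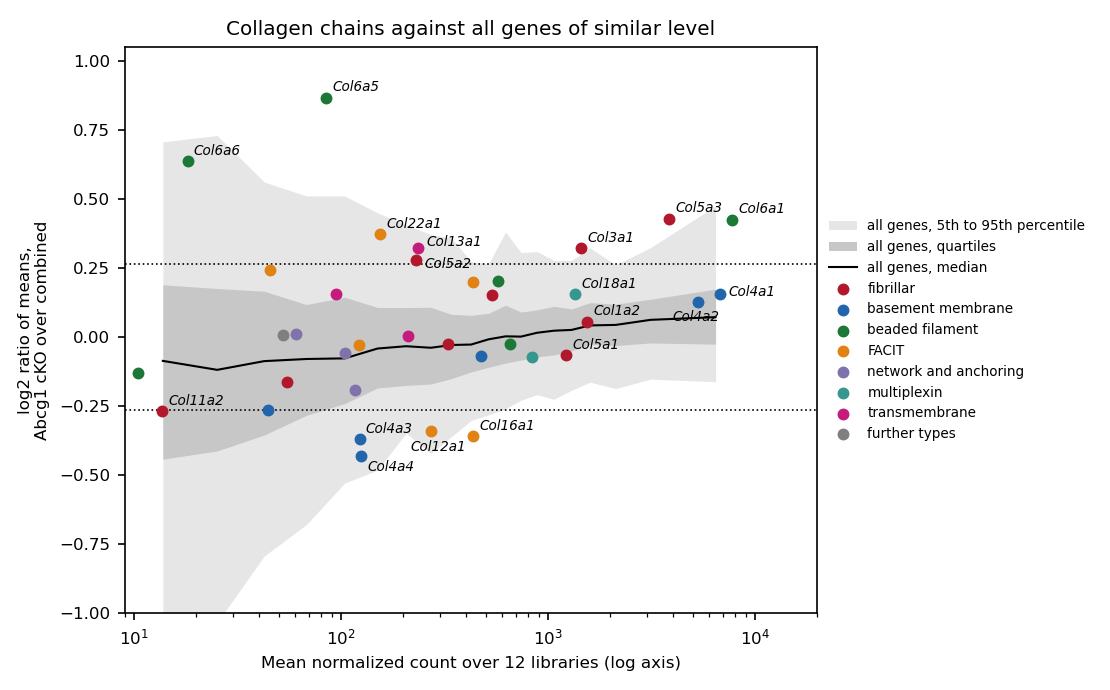
The horizontal log axis gives the mean normalized count over 12 libraries and the vertical axis the log2 ratio of Abcg1 cKO over the combined group, with 1 point for each collagen chain, coloured by class. The line and the grey bands give the median, the quartiles and the 5th to 95th percentile of all 14305 genes in bins of equal size, and the dotted lines mark a fold of 1.2. By the limits of their own bins, Col6a5, Col5a3 and Col16a1 lie outside the 5th to 95th percentile. The bands are drawn between bin centres, so chains beyond the outermost centres, such as Col6a1 and Col4a1, have no band behind them. Between centres the drawn edge can differ from a bin's own limit, as at Col3a1.

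The highest ratios among the chains kept were those of Col6a5 and Col6a6, beaded filament chains of type VI with low means, described below. The other type VI chains did not stand above the chains of other classes as a set. Col6a1 had a mean of 6955 in the combined group and 9340 in Abcg1 cKO (log2 ratio 0.43). Its partner Col6a2, which joins Col6a1 in every trimer, had 543 and 626 (0.20, within the fold). Col6a3, the usual partner of both, had 660 and 650 (-0.02). The chains of a trimer therefore did not share a ratio: that of Col6a1 exceeded that of Col6a3 by 0.45. Per kilobase, Col6a1 stood at 12.3 times Col6a2 in the combined group and 14.4 times in Abcg1 cKO, and at 26 and 35.4 times Col6a3. When all annotated exons were joined to give the length, the overall ratio of Col6a1 to Col6a2 was 25.8, so its size depends on which length is used.

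The remaining type VI chains, which can take the place of Col6a3 in the trimer, lie next to each other on chromosome 9 and were far less abundant. Col6a5 had a mean of 66.0 in the combined group and 121 in Abcg1 cKO (log2 ratio 0.87), the largest ratio of any chain kept. Col6a6, which lies 27917 bases from it on the same strand, had 15.2 and 24.2 (0.64). Col6a4, which lies 28810 bases from Col6a5 on its other side, had 10.8 and 9.81 (-0.13). The ratio was thus high in 2 of these 3 neighbours and below 0 in the other, at levels where few reads carry each mean. Together the 6 type VI genes had 3 members past the fold in the higher direction and none in the lower, with a median of 0.31, where 10.4% of all genes were past the fold in the higher direction, and Col6a6 lay between the 5th and 95th percentile of genes of its level. Their summed level per kilobase was 1910 in the combined group and 2518 in Abcg1 cKO.

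Among the fibrillar chains, 3 of 9 kept were past the fold in the higher direction and 1 in the lower, against 10.4% and 12.2% of all genes, with a median of 0.06. Col5a3 had a mean of 3452 in the combined group and 4648 in Abcg1 cKO (log2 ratio 0.43). Col3a1, the chain of type III collagen of pliable tissues, had 1337 and 1672 (0.32). Col5a2, which lies 24614 bases from Col3a1 on chromosome 1 and is transcribed toward it, had 216 and 262 (0.28). The fourth fibrillar gene past the fold, Col11a2, better known from cartilage, had 14.6 and 11.9 (-0.27), and it dropped inside the fold with a pseudocount of 10. The genes past the fold were therefore not the type I genes that fill most fibrils.

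Both type I chains lay within the fold. Col1a2 had 1520 in the combined group and 1580 in Abcg1 cKO (log2 ratio 0.06). Col1a1 had 516 and 573 (0.15). Per kilobase Col1a1 stood at 0.306 of Col1a2 in the combined group and 0.327 in Abcg1 cKO, although the type I trimer holds 2 Col1a1 chains for each Col1a2 chain, and with the joined exon length this ratio was 0.657. Within type V the chains did not share a ratio either: Col5a1, the chain common to most type V trimers, had 1241 and 1185 (-0.07), so Col5a3 stood at 3.82 times Col5a1 per kilobase in the combined group and 5.39 times in Abcg1 cKO. Col27a1 had 331 and 325 (-0.02) and Col11a1 57.0 and 50.8 (-0.16). Col2a1, the main cartilage collagen, had means of 1.09 and 0.795, and Col24a1 had 0.538 and was listed at 0 in Abcg1 cKO, both under the filter.

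The ratios of the type IV genes of the basement membrane differed between pairs, and so did their levels. Col4a1 had a mean of 6557 in the combined group and 7310 in Abcg1 cKO (log2 ratio 0.16), and Col4a2 had 5121 and 5596 (0.13). Both stayed within the fold, and their ratios differed by 0.03. Col4a4 had 137 and 101.5 (-0.43), and Col4a3 had 133 and 103 (-0.37), both past the fold in the lower direction, as were 12.2% of all genes, and 0.06 apart. Of all genes with means from 10 to under 1000, 16.4% were lower. All genes in the bin of Col4a1 and Col4a2 had a median of 0.07, and those in the bin of Col4a3 and Col4a4 had -0.08. These chains all lay between the 5th and 95th percentile of their bin. Col4a5 had 482 and 459 (-0.07) and Col4a6 had 46.9 and 38.9 (-0.26), both within the fold and 0.19 apart. The members of the 2 pairs with the closest starts thus had nearly the same ratio, and the pair on the X chromosome, whose starts lie furthest apart, had the widest gap. With 3 pairs this order is a description, and Col4a6 had a low overall mean of 44.2. A small gap was not particular to close starts. Col3a1 and Col5a2, whose starts lie 191744 bases apart on chromosome 1, had ratios 0.04 apart.

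The type IV pairs also differed in how evenly their members were expressed. Per kilobase, Col4a1 stood at 1.25 times Col4a2 in the combined group and 1.27 times in Abcg1 cKO, and Col4a3 at 1.15 and 1.2 times Col4a4. Col4a5 stood at 10.5 times Col4a6 in the combined group and 12 times in Abcg1 cKO. The ratio of Col4a1 to Col4a4 was 73.0 in the combined group and 110 in Abcg1 cKO. Col4a3, Col4a4 and Col4a5 form the trimer known from the filtration barrier of the kidney, and here Col4a5 exceeded both of its partners. Col4a6 lay just inside the fold and passed it with a pseudocount of 0.1 or with ratios centred on the median of all genes. The members nearest the threshold were Col4a6 (-0.26) and Col9a2 (0.24) within it, and Col11a2 (-0.27) and Col5a2 (0.28) past it. Of the exon bases of Col4a3, 5.65% also belong to an opposite-strand transcript, C430014B12Rik, and no source used here gives whether the authors counted reads by strand.

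The chains that bind to fibril surfaces (FACIT collagens, whose triple helix is interrupted) went both ways. Col16a1 had a mean of 471 in the combined group and 367 in Abcg1 cKO (log2 ratio -0.36). Col12a1, a bridge between fibrils and other matrix proteins, had 293 and 232 (-0.34). Col22a1, known from the junction of muscle and tendon, had 140 and 182 (0.37). These 3 were past the fold, 1 higher and 2 lower, and the other 3 kept were within it. Of all genes, 10.4% were past it in the higher direction and 12.2% in the lower. Col14a1, the closest relative of Col12a1 among these chains, had 415 and 476 (0.20), so that this related pair lay on opposite sides of 0. Col20a1 had 123 and 120.2 (-0.03), and Col9a2, a chain of cartilage type IX collagen, had 42.9 and 51 (0.24). Under the filter stood Col9a3 at 3.41 and 5.51, Col19a1 at 0.0957 and 1.28, and Col9a1 at 0.0994 and listed at 0 in Abcg1 cKO.

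Of the remaining classes only Col13a1 passed the fold, in the higher direction, as did 10.4% of all genes. Col13a1, a transmembrane collagen known for its part at the neuromuscular synapse, had a mean of 217 in the combined group and 271 in Abcg1 cKO (log2 ratio 0.32). The transmembrane chains Col23a1, with 209.7 and 210.3 (0.00), and Col25a1, with 90.9 and 101.4 (0.16), lay within it. The multiplexins, collagens of basement membrane zones that carry sugar chains, were represented by Col18a1, the source of the endostatin fragment, with 1304 and 1452 (0.15), and by Col15a1 with 852 and 811 (-0.07). The network and anchoring chains were Col8a2 with 121 and 106 (-0.19), Col8a1 with 60.2 and 60.7 (0.01) and Col7a1, the anchoring fibril chain of skin, with 105.7 and 101.4 (-0.06). Col28a1, described around glial cells of peripheral nerves, had 52.2 and 52.5 (0.01). Under the filter stood Col26a1 at 5.23 and 5.75, Col17a1, a hemidesmosome collagen, at 1.21 and 0.183, and Col10a1, the marker of hypertrophic cartilage, which was listed at 0 in both means.

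Summed over all 44 genes, collagen chains took 33923 normalized counts in the combined group and 39295 in Abcg1 cKO, or 0.185% and 0.208% of all summed means. The log2 ratio of these sums was 0.21, while the median chain stood at 0.01, and the gap between the 2 measures came from a few genes. Col6a1 alone made up 44.4% of the difference of 5372 between the sums, Col5a3 22.3%, Col4a1 14%, Col4a2 8.83% and Col3a1 6.23%. Without Col6a1 the log2 ratio of the sums was 0.15, and without Col6a1 and Col5a3 it was 0.11. Without the 8 chains at a mean of at least 1000, the sums were 6435 and 6512, a log2 ratio of 0.02.

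The make-up of the collagen pool by class followed the same genes. Per kilobase, the beaded filament chains took 31.5% of the collagen chain level in the combined group and 35.2% in Abcg1 cKO, the basement membrane chains 31.3% and 29.0%, and the fibrillar chains 23.3% and 23.6%. Col6a1 by itself went from 28% to 31.9%, a wider gap than that of its whole class. The multiplexins took 6.57% and 5.83%, the FACIT chains 3.95% and 3.24%, the transmembrane chains 2.32% and 2.26%, the network and anchoring chains 0.846% and 0.663%, and the further types, Col26a1 and Col28a1, 0.235% and 0.203%. The summed level per kilobase was 6058 and 7144, a log2 ratio of 0.24 that became 0.16 without Col6a1. The basement membrane share was therefore lower in Abcg1 cKO although its summed level, 1895 and 2071 per kilobase, was not.

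**Figure D3:**
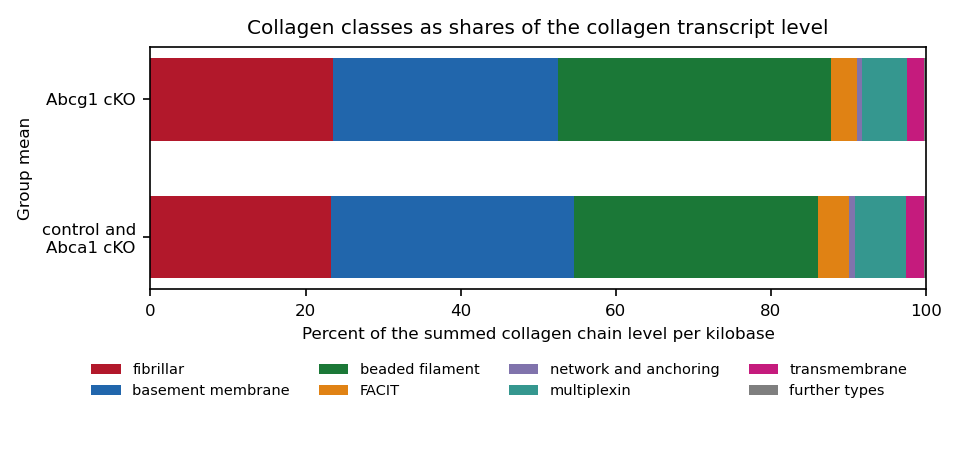
Each bar is a group mean, and its segments give the percent of the summed collagen chain level per kilobase taken by each class. The green segment of the beaded filament chains is wider in Abcg1 cKO (35.2%) than in the combined group (31.5%), and the blue segment of the basement membrane chains is narrower (29.0% and 31.3%).

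Collagen chains need a set of enzymes and partners to become matrix, and 73 such genes were read in the same way. Of 68 kept, 11 (16.2%) were past the fold in the higher direction and 7 (10.3%) in the lower, against 10.4% and 12.2% of all genes, with a median of -0.05. Inside the cell, prolines and lysines of the chains are hydroxylated and the helix is folded in the endoplasmic reticulum. Of 15 kept genes of this step, 5 were past the fold in the higher direction and none in the lower, with a median of 0.08. P4ha1, the catalytic subunit of the main prolyl hydroxylase, had a mean of 1321 in the combined group and 2117 in Abcg1 cKO (log2 ratio 0.68), and its relative P4ha2 had 561 and 738 (0.40). Serpinh1, the collagen-specific chaperone, had 4582 and 5951 (0.38). The lysyl hydroxylases Plod3 and Plod1 had 1178 and 1489 (0.34) and 1005 and 1240 (0.30), while Plod2 had 4899 and 4927 (0.01). P4hb, the partner subunit of the prolyl hydroxylase, had 12007 and 12730 (0.08).

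Of 8 kept genes of export and propeptide removal, only Pcolce2, an enhancer of the enzyme that trims the C-terminal propeptide, passed the fold, with 20.5 and 29.0 (log2 ratio 0.48), and none was lower. Its far more abundant relative Pcolce had 22443 and 25791 (0.20), and Bmp1, the trimming enzyme itself, had 1037 and 896 (-0.21). None of the 6 crosslinking genes passed the fold in either direction, and their median was -0.04. Lox, the founding lysyl oxidase, had 81.5 and 96.9 (0.25), Loxl1 had 535 and 590 (0.14) and Loxl3 112 and 106 (-0.07). None of the 7 genes of fibril-binding proteins passed it either, with a median of -0.08, and the widest ratios there were those of Fmod (-0.25), Fn1 (-0.20) and Lum (-0.13). Of all genes, 10.4% were past the fold in the higher direction and 12.2% in the lower. The lists are short, and the difference in counts between them was not tested.

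Among 8 receptor genes, the integrin subunits that bind collagen went both ways. Itga2 had 39.0 in the combined group and 62.2 in Abcg1 cKO (log2 ratio 0.66) and Itga1 had 623 and 752 (0.27), whereas Itga10 had 83.9 and 57.9 (-0.53) and Itga11 had 62.0 and 42.9 (-0.52). The list thus had 2 of 8 genes past the fold in each direction, against 10.4% higher and 12.2% lower among all genes. Its median was -0.06. Of 9 kept remodelling genes, Timp4, an inhibitor of matrix metalloproteinases, had 46.9 and 77.8 (0.72), Mmp13, a collagenase, had 112 and 91.1 (-0.30), and Ctsk, a collagen-degrading cathepsin, had 122 and 100.3 (-0.28). These were the remodelling genes past the fold, 1 higher and 2 lower of 9, beside the same shares of all genes. The median there was -0.08, and the abundant inhibitor Timp3 had 21856 and 20747 (-0.08).

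The partners of type IV collagen in the basement membrane had 2 of 15 kept genes past the fold in the higher direction and 3 in the lower. The shares of all genes were 10.4% and 12.2%, and the median of the list was -0.08. Sparc, a collagen-binding protein of the matrix, had 51058 in the combined group and 73688 in Abcg1 cKO (log2 ratio 0.53), and Lama4, a laminin chain of vessels, had 2434 and 2961 (0.28). Lama5, a laminin chain of mature basement membranes, had 802 and 533 (-0.59), Lama3 had 289 and 205 (-0.49) and Hspg2, which encodes perlecan, had 3920 and 3131 (-0.32). The summed means of the list were 70730 and 92561, and without Sparc they were 19672 and 18874, so the higher sum in Abcg1 cKO rests on that gene alone. No type IV gene passed the fold in the higher direction, and the difference in counts between these short lists was not tested.

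**Figure D4:**
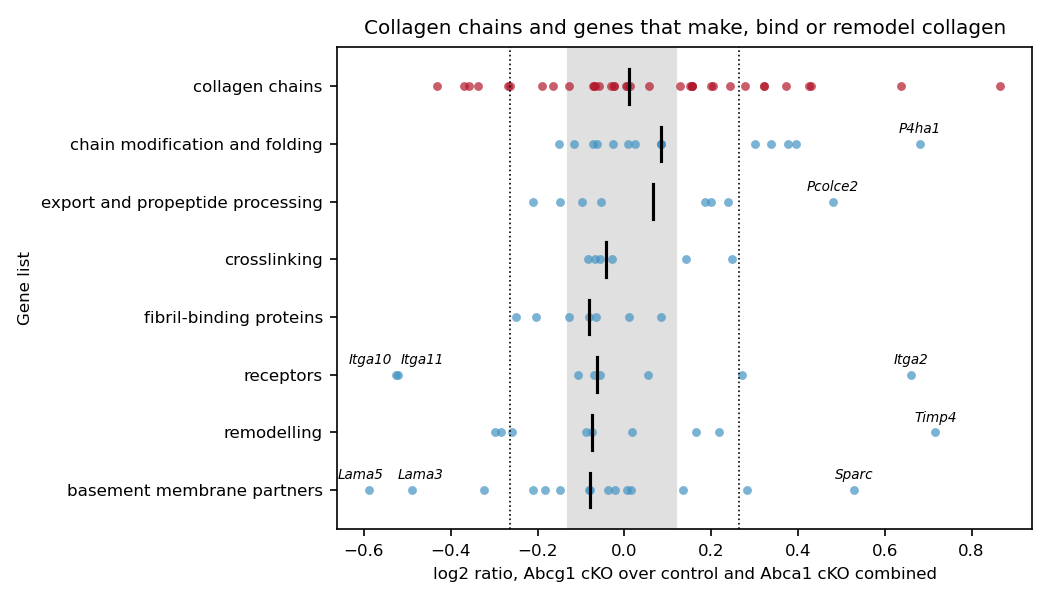
The horizontal axis gives the log2 ratio of Abcg1 cKO over the combined group, with 1 point for each gene kept and 1 row for each list, a black bar at the median of the list, and the grey band at the quartiles of all genes (-0.13 and 0.12). The dotted lines mark a fold of 1.2. The chain modification row has 5 of 15 points past the right line, the receptor row 2 of 8 and the collagen chain row 8 of 36, and the crosslinking and fibril-binding rows hold none past either line. Of all genes kept, 10.4% passed the fold in the higher direction and 12.2% in the lower.

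Markers of cell types that a whole gland holds were read in the same means. Of all genes kept, 10.4% were past the fold in the higher direction and 12.2% in the lower. The capsule and fibroblast markers had summed means of 13455 in the combined group and 13134 in Abcg1 cKO, with none of 9 past the fold in the higher direction and 2 in the lower (Gli1 -0.44 and Tcf21 -0.38). Dcn and Lum stand in this list and among the fibril-binding proteins. The 6 endothelial markers had 14202 and 13398, with none past the fold. The 5 markers of pericytes and smooth muscle had 2917 and 3735, with Acta2 (0.64) and Tagln (0.34) past it in the higher direction. Rgs5 (0.23), Myh11 (0.01) and Cspg4 (-0.06) lay within it, so the list did not share a ratio. Of 3 kept Schwann cell markers, S100b (0.27) was past the fold. The fibroblast and endothelial sums were thus lower in Abcg1 cKO by under 0.1 on the log2 scale, and that of the pericyte and smooth muscle list was higher.

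All 4 adipocyte markers were past the fold in the higher direction, as were 10.4% of all genes kept. Their summed means were 7606 in the combined group and 21416 in Abcg1 cKO, with a median log2 ratio of 1.33. Adipoq had 1019 and 2818 (1.47), although the glands were cleaned of fat, and fat cells are known to make collagens of types IV and VI. The cortex markers summed to 972410 and 1242698, with 4 of 6 past the fold in the higher direction, and the medulla markers to 128543 and 174927, with 5 of 5. Of all genes at a mean of at least 1000, where these markers lie, 7.51% were past the fold in the higher direction. Of 4 macrophage markers, summing to 2188 and 2168, Cd163 (0.30) was past the fold in the higher and Cd68 (-0.30) in the lower direction. The 3 kept lymphocyte markers were all lower (median -0.90), and with Cd3e, which was under the filter, their list summed to 64.0 and 32.2. Among all genes with means from 10 to under 1000, 16.4% were past the fold in the lower direction. No marker was listed at 0. The part of any of these cell types in the collagen means was not tested.

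Positions of the members relative to the altered genes and to other transcripts were also read. The closest member to Abcg1, on chromosome 17, was Col11a2, 2.92 megabases away, and the closest to Abca1, on chromosome 4, was Col15a1, 5.72 megabases away, followed by Col27a1 at 10.1 megabases. In the GENCODE annotation, 13 of the 44 members share exon bases with another gene, and in 11 of these the shared part is at most 5% of the member's exon bases. The exceptions were Col4a3, described above, and Col9a3, of whose exon bases 6.07% also belong to Tcfl5 on the opposite strand.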

How the data were processed

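RNA of whole adrenals was sequenced as paired ends on 2 platforms (NovaSeq and NextSeq), with no source saying which served a given library, so differences by platform were not tested. The authors, as their methods and processing notes give it, demultiplexed reads with bcl2fastq 2.20.0.422, removed adapters (cutadapt 4.0), inspected (FastQC 0.11.9) and filtered the reads (BBTools), aligned them to mm10 (STAR 2.7.10a), obtained gene counts from unique alignments (HTSeq 0.13.5) and normalized with DESeq2 1.38.3. The deposited signal values used here are 3 columns of the authors' means: over all libraries, over Abcg1 cKO, and over control and Abca1 cKO together, each in counts divided by size factors. The overall mean equalled the weighted group means for all 24421 genes within a relative tolerance of 1e-06. The table also holds 12 columns of single libraries whose names match no sample label, which were not used, and 4 columns of the authors' own comparison (fold change, its error, p-value and adjusted p-value), which were not used either. The tests planned for single libraries were therefore not run, and ratios of group means stand in their place. Whether replicates were separate animals is given by the design text (4 mice a group), but no spread between them was measured here.

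Log2 ratios used a pseudocount of 1, which shrinks those of low genes, genes with an overall mean of at least 10 and a fold of 1.2. Alternatives were pseudocounts of 0.1 and 10, no filter, a mean of at least 50, a fold of 1.5 and, added after the values were seen, a fold of 1.1, centring on the median of all genes, joined exon length and the sum of basement membrane partners without Sparc. The members, the classes and the lists of modifying, exporting, crosslinking, binding, receptor, remodelling, basement membrane and cell type marker genes were chosen with earlier results of these data known. A marker gene of these lists is not reported here. Members were named with values if their mean was at least 50, if they passed the fold, or if they were lowest or highest in their class, and all others were added for completeness. Of the lists, genes past the fold were named, or the 3 with the widest ratios at a mean of at least 50 where none passed, and P4hb, Plod2, Pcolce, Bmp1 and Timp3 were added after their values were seen. Gene models came from GENCODE M21 and start regions from RefSeq (GRCm38.p6), both of the mm10 build, with overlapping motif matches counted separately. The ratio and call steps were run on simulated means without noise and with planted changes well past the fold. That run checks the arithmetic and tells nothing of how noisy means are called. Computations used Python 3.11.15, pandas 2.3.3, numpy 2.4.6 and matplotlib 3.10.9.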

Additional observations from a re-analysis of the deposited data

How the results depend on the processing

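The fold that counts as a difference moved the counts most. At a fold of 1.5, 2 collagen chains (Col6a5 and Col6a6) were higher and 0 lower, against 2.59% and 3.26% of all genes, and of the genes that modify, bind or remodel collagen 3 were higher and 1 lower. At a fold of 1.1, a threshold added after the values were seen, 15 chains were higher and 8 lower, against 22% and 23.8% of all genes, and 18 and 16 of the other genes. Under pseudocounts of 0.1 and 10, no filter, a mean of at least 50 and centring, the chain counts ranged from 7 to 10 higher and from 4 to 7 lower. The chains counted ranged from 31 (a mean of at least 50) to 44 (no filter). Of all genes under the same settings, from 9.01% to 10.8% were higher and from 8.42% to 14.7% lower. The median log2 ratio of the chains ranged from 0.005 to 0.013 under all alternatives run. No chain past the fold changed direction with the pseudocount or with centring. Col4a6 passed the fold with a pseudocount of 0.1 (-0.27) and with centring (-0.26), and Col11a2 did not with a pseudocount of 10 (-0.16).

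No paired analysis was possible because the columns used are group means and carry no replicate numbers. For the same reason the fits that leave out a library, count tests on single libraries, another scaling of libraries and Abcg1 cKO against control alone were not run, and the weight of any 1 library in a mean such as that of Col6a5 or Col3a1 is unknown. No interval is given for any mean, since the values of single libraries were not used, and the log2 ratios of chains with means near 10 rest on few reads.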
